A study of Mus musculus with 4 samples.

Results

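Myc, Jun, Cyr61 and Egr1 are immediate early genes, a class whose mRNAs appear within minutes of a growth or stress signal, before any new protein is made. They were examined in ribosome profiling libraries, in which RNase I digests exposed RNA and the stretches shielded by ribosomes, the footprints, are read. The rows of these 4 genes were taken from a deposited table of 4878 genes, in the leader that precedes the main start codon (the 5' untranslated region, or 5' UTR) and in the coding sequence. The genes were chosen by their measured footprint levels in the libraries described here, so every difference of theirs between the groups is given as a description, with no test. The cells were mouse embryonic fibroblasts (connective tissue cells grown from mouse embryos) at passages 5 to 8, transfected by lipid with Si-Negative control or with Si-eIF1A (X+18). The libraries numbered 4 in all, 2 for each siRNA, and nothing in the labels says that replicates came from separate cultures, so the spread between them may be technical. No serum starvation or stimulation step is given in the sources used here.

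The initiation factor eIF1A sits on the small ribosomal subunit while it scans the leader and settles on a start codon. The proteins of the 4 genes act downstream of growth factor receptors, and the mRNAs of these genes are short-lived. Myc is a transcription factor that drives ribosome production and cell growth, and Jun is a subunit of the dimeric transcription factor AP-1. Cyr61 is a secreted matrix protein that binds integrins and is a known target of the YAP and TEAD factors. Egr1 is a zinc finger transcription factor whose gene is a target of SRF and its ERK-activated partners.

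The listed genes together held 280649 to 617663 reads per library, fewest in knockdown replicate 2. Reads on 5' UTRs made up 11.6% and 13.7% of them in the control pair, and 20% and 32.4% in the knockdown pair. Across all genes tested by limma, the median log2 change between the groups, eIF1A siRNA over control siRNA, was -0.16 for coding reads, 1.09 for 5' UTR reads and 1.23 for the ratio of the 2 regions. On coding reads 488 of 4619 genes rose (10.6%) and 864 fell (18.7%), a balance that turned to 784 and 771 with TMM factors computed from coding reads alone. On 5' UTR reads 924 of 2101 genes rose (44.0%) and 59 fell (2.81%), and the ratio rose in 370 of 1907 genes (19.4%). Of the fibroblast markers, 3 of 13 were among the listed genes (Vim, Fn1 and S100a4), with summed levels of 3850 to 5500 normalized coding reads in the controls and 2870 to 3450 in the knockdown libraries. Epithelial, neuronal and pericyte lists had 1 of 7 (Dsp), 2 of 4 (Map2 and Nes) and 2 of 3 markers (Cspg4 and Notch3) among the listed genes, and the endothelial, leukocyte and muscle lists had none. The pericyte pair summed to 337 and 548 in the controls and to 106 and 123 in the knockdown libraries, Dsp to 109 to 146 and 71.8 to 82.4, and the neuronal pair to 160 to 207 and 68.6 to 92.5, and the part of such cells in the results was not tested. In bulk footprint libraries fewer cells of a type, less RNA per cell and less translation per mRNA cannot be told apart. The genes that encode eIF1A itself (Eif1ax and Eif1a) were not analysed here, so these libraries give no check of the knockdown.

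Myc, Jun and Cyr61 carried more footprints in both knockdown libraries than in both controls, on the coding sequence and on the 5' UTR alike. Egr1 carried fewer on its coding sequence and more on its 5' UTR. By group means of normalized reads, the coding level went from 5.89 to 46.4 for Myc, from 4.46 to 43.0 for Jun, from 27.1 to 91.6 for Cyr61 and from 77.2 to 40.2 for Egr1. RNA-seq was not used here, so more mRNA and more translation per mRNA cannot be told apart in any of these values. Levels are not set against each other between genes, because no coding or leader lengths were used.

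**Figure D1:**
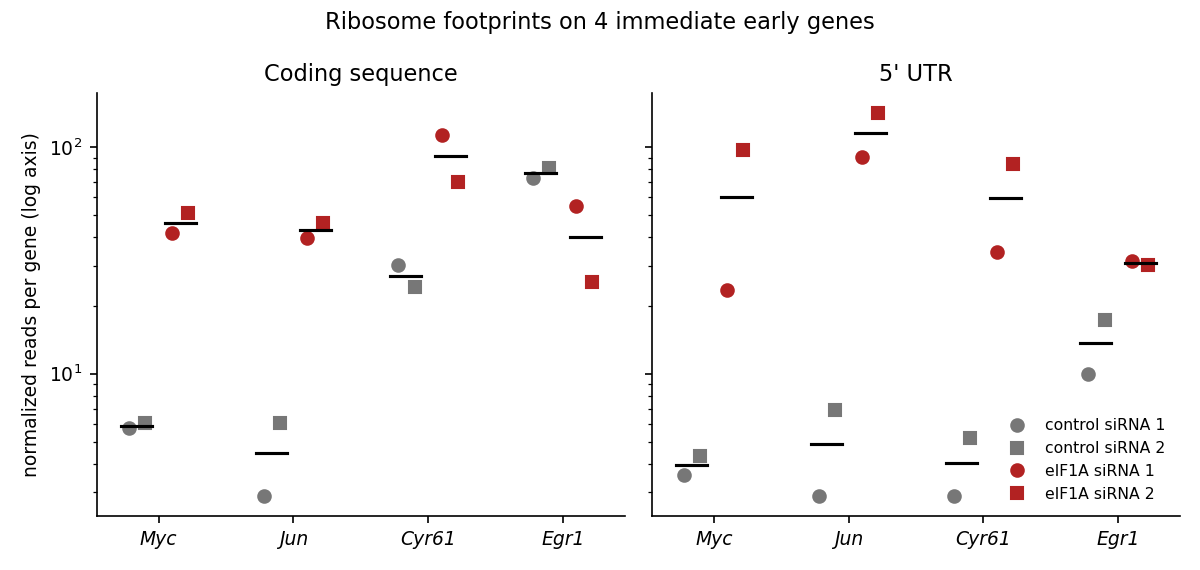
Normalized reads per gene on a log axis, on the coding sequence (left) and the 5' UTR (right), with grey points for control siRNA, red points for eIF1A siRNA, circles for replicate 1, squares for replicate 2 and black lines for the means of 2 libraries. Red points lie above grey ones everywhere but on the coding sequence of Egr1, where they lie at 54.9 and 25.5 against 73.1 and 81.2.

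Myc (chromosome 15, 61985341 to 61990361, GRCm38) is annotated in RefSeq with 4 transcripts, and its mRNA is known for a second, non-AUG start upstream of the main start codon. Its coding sequence held 8 and 7 reads in control replicates 1 and 2, or 5.73 and 6.05 normalized reads. In knockdown replicates 1 and 2 it held 41 and 32 reads, or 41.7 and 51.1 normalized reads. The replicates of each group lay close together, and the lower knockdown library was 6.89 times the higher control. The log2 change was 2.77 with a standard deviation between replicates of 0.15, which ranked 14 of 4619 genes from the highest. By summed reads (the reads of each group pooled and scaled by its pooled depth) the coding level was 7.72 times the control, with an exact 95% counting interval of 4.39 to 14.5.

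The leader of Myc was less even between replicates. Its 5' UTR had 3.58 and 4.32 normalized reads in the controls and 23.4 and 97.4 in the knockdown libraries, a factor of 4.16 between the latter. Both knockdown libraries still lay above both controls, by at least 5.41 times, and the log2 change was 3.31. The 5' UTR share of the Myc footprints was 38.5% and 41.7% in the controls, from 13 and 12 reads, and 35.9% and 65.6% in the knockdown libraries, from 64 and 93 reads. Knockdown replicate 1 thus lay below both controls and replicate 2 above them, and the groups overlapped. The log2 change of the ratio of leader to coding reads was 0.54, below the 1.23 of the median gene, and it was -0.33 without knockdown replicate 2.

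Jun (chromosome 4, 95049036 to 95052222, GRCm38, minus strand) has a single annotated RefSeq transcript. A RefSeq promoter sequence of the same build, from 250 bases before to 50 after the start site, was used for 2 of the 4 genes, Jun and Cyr61. Myc and Egr1 were not examined in this way. The short stretches of Jun and Cyr61 below show motif matches in capitals, with the surrounding bases in lower case. The motifs are those of AP-1/ATF, TEAD and CRE-binding factors and the TATA box, a general core promoter element.
Jun, AP-1/ATF octamer, chr4:95052251-95052276, minus strand: gcctcggggTGACATCAtgggctatt
Cyr61, TEAD core, chr3:145650074-145650097, minus strand: gccaaccaaCATTCCtgagatgtt
Cyr61, CGTCA part of a CRE, chr3:145650030-145650052, minus strand: acagagctaCGTCActgcaacac
Cyr61, TATA box, chr3:145649996-145650019, minus strand: ggcaggcatTATAAAgggcgggct
The octamer TGACATCA starts 45 bases before the start site of Jun, and it occurs on either strand in 3.62% of 32851 promoter windows of 300 bases. CATTCC starts 103 bases before the start site of Cyr61 (14.7% of windows), CGTCA 58 bases before (20.8%) and TATAAA 25 bases before (13.6%), with no overlap among these matches. Genes with TGACATCA in their window had a median coding log2 change of -0.12 (74 tested genes), those with CATTCC had -0.25 (487 genes), those with CGTCA had -0.09 (1432 genes), those with TATAAA had -0.10 (294 genes), and all 3633 tested genes with a window had -0.16. Matches to the CCAAT box in Jun (37.4% of windows) and to the GC box in Jun and Cyr61 (35.7%) are not shown. A match describes letters only, and no binding was measured.

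The coding sequence of Jun held 4 and 7 reads in control replicates 1 and 2, or 2.87 and 6.05 normalized reads, against 39 and 29 reads, or 39.7 and 46.3 normalized reads, in knockdown replicates 1 and 2. The groups did not overlap, with the lower knockdown library at 6.56 times the higher control. The log2 change was 3.07 ± 0.45 (SD between replicates, n = 2 per group), rank 6 of 4619. By summed reads the coding level was 9.80 times the control, with an exact 95% counting interval from 5.15 to 20.6. Had 1 read been added to every value before deposit, it would be 11.6 times (interval 5.77 to 26.5).

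Jun stood out among the 4 genes for its leader. Its 5' UTR had 2.87 and 6.91 normalized reads in the controls and 90.5 and 142 in the knockdown libraries, 4 and 8 reads against 89 and 89. The log2 change was 4.37, rank 3 of 2101 genes, and by summed reads the level was 23.5 times the control (counting interval 13.1 to 46.4). Leader reads outnumbered coding reads in both knockdown libraries, at 69.5% (exact 95% binomial interval 60.8 to 77.4) and 75.4% (66.6 to 82.9) of the gene's reads. In the controls the share was already 50% and 53.3%, though from only 8 and 15 reads, with intervals of 15.7 to 84.3 and 26.6 to 78.7. The ratio of leader to coding reads changed by 1.30 on the log2 scale, next to 1.23 for the median gene. The leader thus held as many reads as the coding sequence or more in all 4 libraries.

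Cyr61, listed in RefSeq under its newer name Ccn1 (chromosome 3, 145646971 to 145649985, GRCm38), had 30.1 and 24.2 normalized coding reads in control replicates 1 and 2, from 42 and 28 reads. In knockdown replicates 1 and 2 it had 113 and 70.2, from 111 and 44 reads. Both knockdown libraries lay above both controls by at least 2.33 times. The log2 change of 1.69 ± 0.37 (SD, n = 2 per group) ranked 151 of 4619, and by summed reads the level was 3.51 times the control (counting interval 2.63 to 4.73).

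The leader of Cyr61 showed the larger difference, with 2.87 and 5.19 normalized reads in the controls and 34.6 and 84.6 in the knockdown libraries. Its log2 change was 3.50, rank 37 of 2101, although the controls held only 4 and 6 reads. The knockdown libraries split in opposite ways over the 2 regions: replicate 1 had more coding reads and replicate 2 more leader reads. Added over both regions, they were nearly equal, at 151 ± 5.20 normalized reads against 31.2 ± 2.53 in the controls (SD, n = 2), 4.80 times by summed reads (counting interval 3.71 to 6.26). The 5' UTR share went from 8.70% and 17.6% to 23.4% and 54.6%, and the log2 change of the ratio was 1.81. It was 0.84 without knockdown replicate 2 and 2.78 without knockdown replicate 1, on either side of the 1.23 of the median gene.

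Egr1 (chromosome 18, 34861207 to 34864956, GRCm38) went the other way on its coding sequence. It had 73.1 and 81.2 normalized coding reads in control replicates 1 and 2, from 102 and 94 reads, and 54.9 and 25.5 in knockdown replicates 1 and 2, from 54 and 16 reads. The knockdown libraries lay below the controls, though replicate 1 was closer to the controls than to replicate 2 on the log scale. The log2 change was -1.02 ± 0.54 (SD, n = 2 per group), and it was -0.48 without knockdown replicate 2 and -1.56 without knockdown replicate 1. By summed reads the controls were 1.77 times the knockdown level (counting interval 1.34 to 2.35).

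The leader of Egr1 had 10.0 and 17.3 normalized reads in the controls and 31.5 and 30.3 in the knockdown libraries, 2.33 times by summed reads (counting interval 1.48 to 3.72). Its log2 change of 1.17 lay beside the 1.09 of the median tested gene. The median over all 4878 genes, with no lower limit on reads, was 0.67. Over both regions together Egr1 averaged 90.8 ± 10.9 normalized reads with control siRNA and 71.2 ± 21.6 with eIF1A siRNA (SD, n = 2), a ratio of 0.827 by summed reads (counting interval 0.658 to 1.04). The 5' UTR share went from 12.1% and 17.5% to 36.5% and 54.3%, so in knockdown replicate 2 leader reads (19) outnumbered coding reads (16). The ratio changed by 2.19 on the log2 scale, rank 267 of 1907, and by 1.68 to 2.70 with 1 library left out.

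**Figure D2:**
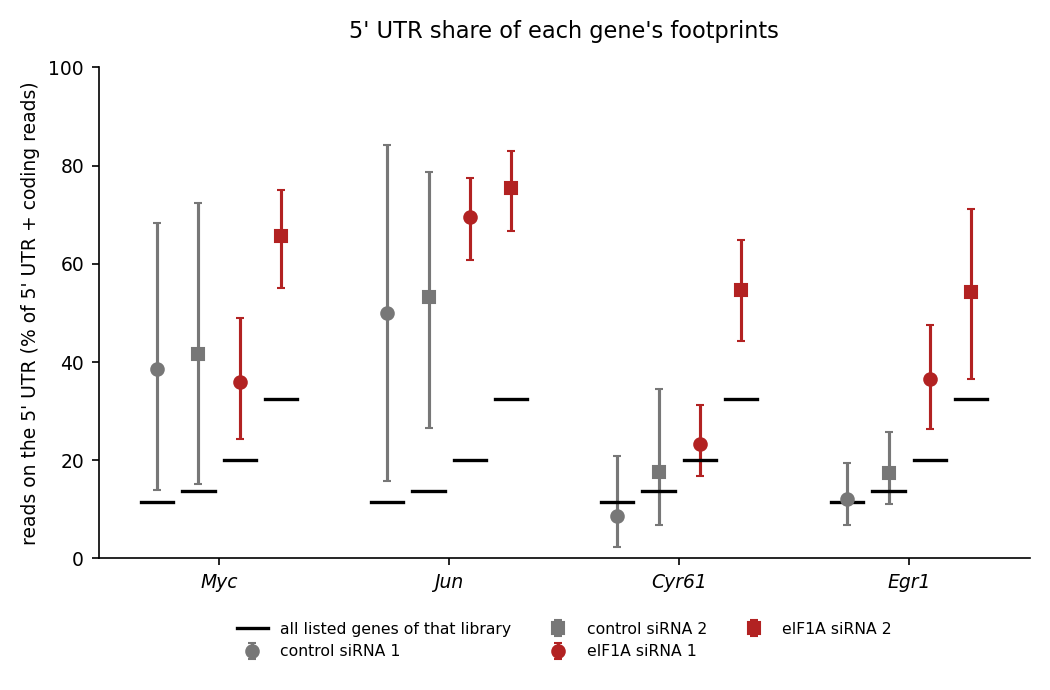
Share of each gene's footprints on its 5' UTR, in percent of its 5' UTR and coding reads, with exact 95% binomial intervals that cover counting error only, for control siRNA (grey) and eIF1A siRNA (red); black lines give the share over all listed genes of that library. Myc, Jun and Egr1 lie above the black line in every library, Cyr61 lies at 8.70% and 17.6% in the controls, and knockdown replicate 2 is highest for each gene.

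In the controls the leader share was 38.5% to 53.3% for Myc and Jun, from 8 to 15 reads per library, and 8.70% to 17.6% for Cyr61 and Egr1, near the 11.6% and 13.7% of their libraries. The counting intervals of Myc and Jun ran from 13.9% to 68.4% at the lowest value and from 26.6% to 78.7% at the highest. That highest interval, of Jun in control replicate 2, lay above that of Egr1 in the same library (11.1% to 25.8%). Within each control library the other intervals of Myc and Jun overlapped those of Cyr61 and Egr1, so a full order of the genes is not resolved at this depth. A share also depends on the length of the leader relative to the coding sequence. No lengths were used, so the part of length in these differences between genes was not tested. The log2 changes of the ratio of leader to coding reads were 0.54 for Myc, 1.30 for Jun, 1.81 for Cyr61 and 2.19 for Egr1, with standard deviations between replicates of 0.23 to 1.09. Their order changed without knockdown replicate 2, where Jun was at 1.09 and Cyr61 at 0.84, and with a pseudocount of 5, where they were at 1.25 and 1.18.

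The members' calls are listed beside the background and nothing is read from them, since the genes were chosen on these values. On coding reads 3 of the 4 passed limma's threshold upwards, where 10.6% of all tested genes did, and Egr1 passed downwards, where 18.7% did. Both knockdown coding values lay above both controls in 3 of 4, against 26.0% of all genes, and below in Egr1, against 40.1%. For the 5' UTR, Myc, Jun and Cyr61 passed upwards (44.0% of genes) and all 4 had groups apart (67.4%). For the ratio, Egr1 passed upwards (19.4%), and Jun, Cyr61 and Egr1 had both knockdown values above both controls (63.9%).

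**Figure D3:**
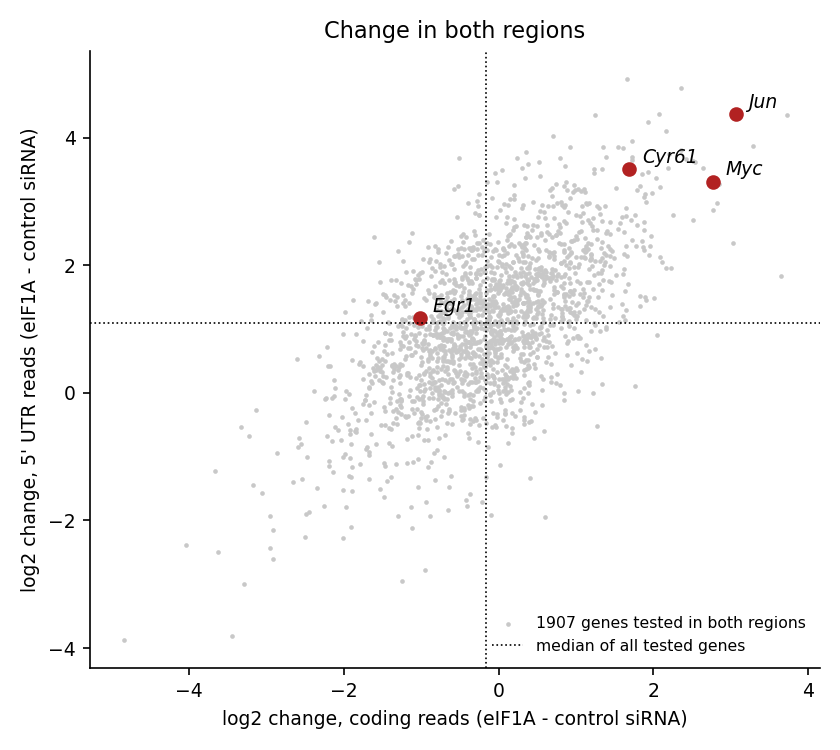
Log2 change in coding reads (x axis) and in 5' UTR reads (y axis), eIF1A siRNA over control siRNA, for the 1907 genes tested in both regions (grey) and the 4 immediate early genes (red); dotted lines mark the medians of all tested genes, -0.16 and 1.09. Jun, Myc and Cyr61 lie at the upper right, and Egr1 lies left of the coding median at the height of the 5' UTR median.

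The genes with the most similar pattern were taken by Euclidean distance over 8 values, the centred log2 levels of both regions in the 4 libraries, among 1906 other genes. With 2 groups this measure follows mainly the change between them. Nearest to Myc were Rps9, a protein of the small ribosomal subunit (distance 0.71), the ephrin receptor Epha2 (0.86), the pseudokinase Trib3 (1.00), Mak16 (1.06) and the nucleolar GTPase Gnl3 (1.28), against a median distance of 3.93. Jun was nearest to Rpl12 (1.19), the prostaglandin synthase Ptgs2 (1.23), Rpl41 (1.32), the initiation factor Eif1 (1.35) and the spermidine synthase Srm (1.46), and Myc followed as number 9. Cyr61 was nearest to D030056L22Rik (0.43), Pwp1 (0.78), Rps27a (0.79), the LIM protein Ajuba (0.80) and the mitochondrial chaperonin Hspd1 (0.85). Egr1 had close neighbours among genes lower on the coding sequence and higher on the leader, the protease Capn1 (0.52), the GTPase Ralb (0.54), Mboat7 (0.55), the nucleoside transporter Slc29a1 (0.58) and Tead3 (0.59). From Egr1, the other members were among the farthest genes, at numbers 1853 to 1903 of 1906.

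Other immediate early genes numbered 61 on the list, of which 19 were among the listed genes and 14 were tested on coding reads. There 2 rose, 1 fell and 11 did not pass, with a median log2 change of 0.69 beside -0.16 for all genes. Rises made up 10.6% and falls 18.7% over all genes, and 29.3% were called in either direction. Both knockdown values lay above both controls in 8 of the 14, against 26.0% of all genes, and below in 2, against 40.1%. Sgk1, a kinase induced by serum, had 0.717 and 6.05 normalized coding reads in the controls and 51.9 and 28.7 in the knockdown libraries (log2 3.51, limma adjusted p = 0.00138). Ptgs2, the inducible prostaglandin synthase, rose from 5.73 and 9.51 to 54.9 and 41.5 (log2 2.54, limma adjusted p = 0.000628). Genes were tested where the mean over the 4 libraries was at least 10 normalized reads. Sgk1 (3.38) and Ptgs2 (7.62) averaged less in the controls, so they could be tested only because their knockdown values were higher. The lower control value of Sgk1 is 1 read. Among the genes that did not pass were Jund (-0.32), Mcl1 (1.03) and Thbs1 (0.67). On the 5' UTR 8 of 13 rose and 5 did not pass, among the former Thbs1, a matrix protein (log2 3.18), and Rhob, a small GTPase (2.74), beside 44.0% of all genes.

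With any 1 library left out the fit has 1 residual degree of freedom. Many calls ended without a control library, and few ended without a knockdown library. Of 54 called values of genes that the naming rule took, 25 lost their call without control replicate 1 and 33 without control replicate 2, where limma called 294 and 11 genes on coding reads in all, and none changed sign. Without control replicate 2 the calls of Sgk1 and Ptgs2 were lost, with log2 changes of 4.53 and 2.86 there. Over all 13 alternatives Sgk1 ranged from 2.46 to 4.53 and Ptgs2 from 2.08 to 2.86.

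AP-1 dimerisation partners and family members gave 2 rises and 5 genes that did not pass among 7 tested of 20, with a median of 0.02. On coding reads rises made up 10.6% over all genes. Atf4, which also leads the amino acid response, rose from 7.88 and 4.32 to 66.1 and 46.3 normalized coding reads (log2 3.03, limma adjusted p = 0.000232). Mafg, a small Maf protein, rose from 7.17 and 4.32 to 17.3 and 25.5 (log2 1.74, limma adjusted p = 0.0259), a call lost with DESeq2, without either control library and without knockdown replicate 2 (log2 1.47). Atf4 (6.1) and Mafg (5.74) averaged under 10 normalized coding reads in the controls, so they too could be tested only through their higher knockdown values. Fosl2 (0.94) and Jund (-0.32) did not pass, and Fos, Fosb and Junb were not analysed here. Of 20 known AP-1 targets 7 were tested, and 3 rose on coding reads and 4 did not pass, with a median of 0.72. Ccnd1, cyclin D1, rose by 3.66 and the bone matrix protein Spp1 by 1.36, beside Ptgs2. Ccnd1 averaged 3.45 in the controls, so it and Ptgs2 could be tested only through their higher knockdown values. Their 5' UTR reads rose in 6 of 7 genes, where 44.0% of all genes rose.

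**Figure D4:**
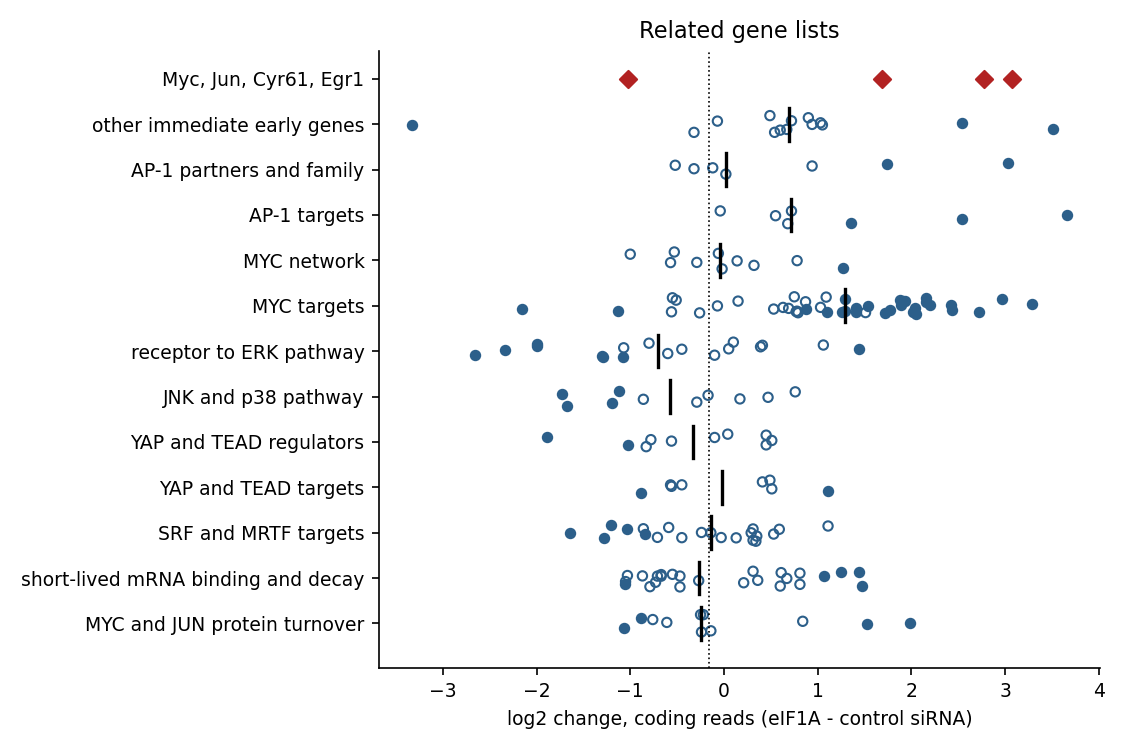
Log2 change in coding reads of the 4 immediate early genes (red diamonds) and of each tested gene on related lists (filled, past the limma threshold; open, not past it), with black bars at list medians and a dotted line at the median of all tested genes, -0.16. MYC targets have a median of 1.29, and genes of the receptor to ERK pathway have a median of -0.70.

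Partners and cofactors of MYC were listed apart from its target genes. Among 10 tested network genes of 22, 1 rose, the ATPase Ruvbl1 (log2 1.27, limma adjusted p = 0.0117), and 9 did not pass, with a median of -0.04. Of 64 listed MYC targets, mostly genes of ribosome production, 44 were tested. On coding reads 25 rose, 2 fell and 17 did not pass, with a median of 1.29 beside -0.16. Over all tested genes 10.6% rose and 18.7% fell. Rrp12, a ribosome export factor, rose from 15.0 and 15.6 to 131 and 123 normalized coding reads (log2 2.97, limma adjusted p = 2.4e-05). Srm, spermidine synthase, rose by 3.29 (limma adjusted p = 3.02e-05) and Mybbp1a, a nucleolar protein, by 2.16 (limma adjusted p = 0.000111). Srm averaged 8.11 in the controls, so it could be tested only through its higher knockdown values. The genes that fell were Ldha, lactate dehydrogenase (-2.16), and Mcm4, a helicase subunit of DNA replication (-1.13). On the 5' UTR 11 of 16 targets rose, beside 44.0% of all tested leaders, with Hspe1 at 3.67 and Utp20 at 3.95. All 3 calls of Rrp12, Mybbp1a and Srm held without control replicate 1, and Srm lost its call without control replicate 2.

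In the pathway from growth factor receptors to ERK, 18 of 44 genes were tested, 7 fell, 1 rose and 10 did not pass, with a median of -0.70, where 18.7% of all genes fell. Nf1, which switches off Ras, fell from 272 and 392 to 51.9 and 49.5 normalized coding reads (log2 -2.66, limma adjusted p = 3.14e-05). Mapk3, the kinase ERK1, fell from 71.7 and 78.7 to 20.3 and 9.58 (log2 -2.34, limma adjusted p = 0.000538), and Igf1r, a growth factor receptor, fell by 1.99. Egfr (-1.30) and the kinase Rps6ka1 (-1.99) fell as well, and the transcription factor Ets1 rose by 1.44. On their leaders 6 of 16 genes of the pathway rose and 10 did not pass, beside rises in 44.0% of all tested leaders, with the kinase Map2k2 (2.66) and Ets1 (2.25) among the former.

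The stress kinase pathways to JNK and p38, the kinases that phosphorylate Jun and its partners, gave 4 falls among 10 tested genes, and 6 did not pass (median -0.58), where 18.7% of all genes fell. Map3k4 fell by 1.73 (limma adjusted p = 0.00106), the scaffold Mapk8ip3 by 1.19 and Mapkapk2 by 1.12, the latter pair without a call by DESeq2. On the leader Map2k3 (1.66) and Dusp16 (1.58) rose among 3 tested, the latter without a call by DESeq2, where 44.0% of all leaders rose.

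Genes that regulate Cyr61 or share its regulators were examined on coding reads, where 29.3% of all tested genes were called in either direction. Among 10 tested regulators of YAP and TEAD, Tead2 fell by 1.89 (limma adjusted p = 0.00211), the kinase Stk3 fell by 1.02 and 8 did not pass, Yap1 and Wwtr1 among them. The call of Stk3 was lost with DESeq2, without either control library and without knockdown replicate 2 (log2 -0.74). Of 8 tested YAP and TEAD targets, Ajuba rose by 1.11 and Axl fell by 0.89, and 6 did not pass, with a median of -0.02. The call of Ajuba was lost in 5 of 13 alternatives and that of Axl in 3, with TMM factors from coding reads among the latter. SRF and MRTF targets gave 5 falls and 16 genes that did not pass among 21, with the actin-binding proteins Lima1 (-1.64), Cnn3 (-1.28) and Flna (-1.21) lower. Falls made up 18.7% over all genes. Their leaders rose in 7 of 12, beside 44.0% of all tested leaders, with Actg1, gamma actin, at 3.40 and Tagln2 at 3.36. Relatives and receptors of Cyr61 were 3 of 15 in the table, and the integrin Itgb5 (-0.90) and the syndecan Sdc4 (1.01) did not pass.

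For Egr1, 2 of 8 genes on a list of its family, its corepressors and other zinc finger factors were tested on coding reads. Sp1, a zinc finger factor of GC boxes outside the EGR family, fell from 208 and 204 to 109 and 97.4 normalized coding reads (log2 -0.99, limma adjusted p = 0.0156). Falls made up 18.7% over all genes. The call of Sp1 was lost without either control library, with log2 changes of -1.09 to -0.83 over all alternatives. Nab2, the EGR corepressor, did not pass. On its leader Nab2 had 5.73 and 19.0 normalized reads in the controls and 6.10 and 22.3 in the knockdown libraries, so the replicates differed by more than the groups.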

How the data were processed

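Footprints were compared between 2 control and 2 eIF1A siRNA libraries. Per the submitters' processing notes, cutadapt, Bowtie, TopHat2, HTSeq, DESeq2 and mm10 were used, with versions, order and other steps not given in the sources used here. Values came as deposited: a signal in normalized reads, 1 column per library for the 5' UTR and 1 for the coding sequence, per the file headers. Whole reads were recovered for 100% of values (tolerance 0.001 reads) by dividing by each library's lowest value, 0.717 to 1.60. That lowest value is 1 read, so 1 may stand for 0 or have been added. The log2 of the value plus a pseudocount of 1 was tested with limma 3.58.1 (R 4.3.3; empirical Bayes with trend; Benjamini-Hochberg over all genes; threshold 0.05) where the mean was at least 10 normalized reads. This scale understates changes of low genes. A gene or leader with a control mean under 10 could pass this filter only through higher knockdown values, so its rise is not independent of the filter. Among the named leaders this holds for Thbs1, Hspe1 and Utp20, and others were not singled out. For a single value, 2 libraries against 2 cannot give an exact permutation p below 0.333. Members get no p. The members and gene lists were chosen with earlier results of these data known. Genes were named by a fixed rule: the 4 members, up to 3 called genes per list with the smallest adjusted p on coding reads (2 on the 5' UTR), and 5 nearest patterns per member; others named were picked after their values were seen. Alternatives were edgeR 4.0.16 and DESeq2 1.42.0 on recovered reads, TMM factors, pseudocounts, no filter, 1 read subtracted, each library left out and a replicate block. The procedure was run on simulated counts with the same spread between replicates set for every gene, unlike the uneven knockdown pair. The outcome is not reported here, and no support is drawn from it. Ratios by summed reads pool the recovered reads of a group and scale them by its pooled depth, so deeper libraries weigh more than in the group means. Counting intervals are exact and cover counting error only. Some genes that the rule took or the lists hold are not reported here.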

Additional observations from a re-analysis of the deposited data

How the results depend on the processing

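The coding, 5' UTR and ratio changes of the 4 members kept their sign under every alternative run, including TMM factors from coding reads, which were added after seeing the data, except the Myc ratio, which was -0.33 without knockdown replicate 2 (range -0.33 to 1.40 with each library left out). Only these values moved by more than the spread between replicates, apart from libraries left out. The Myc coding change was 2.94 with edgeR, 2.97 with DESeq2, 2.93 with TMM factors from coding reads and 2.23 with a pseudocount of 5. With that pseudocount Jun was 2.36 (coding) and 3.61 (5' UTR) and Cyr61 3.50 became 2.73 (5' UTR). Counts of called genes, 1352 for coding reads, were 890 with DESeq2 and 11 to 1729 with 1 library left out. The 5' UTR count of 983 ranged from 189 to 1396, and the ratio count of 371 from 0 (limma, without control replicate 2, 180 genes at an unadjusted p under 0.05) to 1175. Without a filter the ratio count was 629, and the 5' UTR count was 1309 of 4878 genes with a median log2 change of 0.67. The correlation of same-numbered deviations was 0.261 for coding and -0.0611 for 5' UTR reads. Whether the replicate numbers pair the libraries is thus not settled, and the main fits used no pairing. With a replicate block limma called 1921, 1258 and 851 genes. Few reads limit Myc and Jun most, with 4 to 8 reads per region in each control.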

Other observations

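Factors that bind or degrade short-lived mRNAs, a class to which immediate early mRNAs belong, made up a list of 41. Of 25 genes tested on coding reads, 4 rose, 1 fell and 20 did not pass, with a median log2 change of -0.27 beside -0.16 for all genes. Rises made up 10.6% and falls 18.7% of all tested genes. Zfp36l2, a protein that binds AU-rich elements, rose from 43.0 and 42.4 to 138 and 104 normalized coding reads (log2 1.47, limma adjusted p = 0.00262). Ybx1, a cold shock domain protein, rose by 1.25 on coding reads and by 4.36 on its leader, from 13.6 and 14.7 to 213 and 450 normalized reads. Cnot1, the scaffold of the main deadenylase, fell by 1.06, a call that was lost without control replicate 2 and without knockdown replicate 1. The leader of Elavl1, the stabilising protein HuR, rose by 3.16.

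Enzymes of MYC and JUN protein turnover gave 2 rises, 2 falls and 7 genes that did not pass among 11 tested on coding reads. Over all tested genes 10.6% rose and 18.7% fell. Usp36, a nucleolar deubiquitinase, rose from 14.3 and 19.9 to 77.3 and 62.2 normalized coding reads (log2 1.98, limma adjusted p = 0.000904), and Rbx1, the ring subunit of cullin ligases, rose by 1.53. Cul4b, a cullin, fell by 1.07. Usp36 and Cul4b lost their calls without either control library, and Rbx1 without control replicate 2.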
